A study of Mus musculus with 11 samples.

Results

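A set of 10 transcription factors of mesenchymal cells and myofibroblasts was followed by gene symbol in sorted mouse skin fibroblasts: Runx1, Runx2, Scx, Prrx1, Twist1, Twist2, Snai1, Snai2, Zeb1 and Zeb2. They were 10 of the 47643 gene symbols listed, and 9 of them passed the filter on low values. The cells came from unwounded back skin (NS) or from wounds 5 days after injury (5dw), in mice aged 9 to 12 weeks. Act mice carried INHBA, the gene of the activin A subunit, under the keratin 14 promoter, a promoter of keratinocytes and not of fibroblasts, and wild-type (WT) littermates were the controls. All mice were F1 progeny of the CD-1 and C57Bl/6 strains. Cells were sorted as alive, CD140a positive and CD45 negative. The groups WT NS, Act NS and WT 5dw had 3 libraries each and Act 5dw had 2, numbered 1 and 3, and a library was made from poly-A RNA of 3 mice, pooled over sorting sessions. RNA input was 100 ng for NS and 200 ng for 5dw, so input and tissue cannot be told apart.

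Runx1 and Runx2 encode DNA-binding subunits that act with the partner CBFB. Runx2 is best known as the master regulator of osteoblasts, and Runx1 as a regulator of blood formation. Prrx1 marks fibroblasts of limb and skin mesenchyme. Twist1 and Twist2 encode basic helix-loop-helix (bHLH) factors that dimerise with E proteins such as TCF3, TCF4 and TCF12, and the ID proteins take these partners away. Snai1, Snai2, Zeb1 and Zeb2 encode zinc-finger repressors that bind E-boxes and shut off epithelial genes such as Cdh1 during epithelial-mesenchymal transition. Scx, scleraxis, is the factor of tendon cells. All of them are expressed in some mesenchymal lineage, so their levels in fibroblasts do not by themselves mark a transition from epithelium.

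Levels are given as RPKM, which corrects read numbers for gene length and for the size of the library, so they can be compared between genes. The mapped reads worked out from the values ranged from 18649321 to 39702138 per library, with the 3 WT 5dw libraries deepest at 38740404 to 39702138. The mouse Inhba row was at 3.40 to 6.93 in WT NS, 36.3 to 91.1 in Act NS, 15.8 to 24.0 in WT 5dw and 26.2 to 50.2 in Act 5dw, and whether transgene reads were counted in it was not tested. Pdgfra, which encodes CD140a, was at 49.8 to 65.3 in NS and 29.6 to 37.3 in 5dw, and all 10 fibroblast markers were present. Their sum was 11300 to 17130 in NS and 22880 to 26340 in 5dw. With wounding 4 of them were called higher and 4 lower in WT, and 3 higher and 3 lower in Act. Ptprc, which encodes CD45, reached at most 0.0498. Summed RPKM of the 12 keratinocyte markers was 1242 to 2211 in WT NS, 1255 to 4618 in Act NS, 154 to 1364 in WT 5dw and 341 to 413 in Act 5dw, with WT 5dw replicate 3 above both NS libraries numbered 1. Of these markers 9 fell with wounding in each genotype, where 48.8% (WT) and 36.5% (Act) of all tested genes fell, and 7 did after median-ratio scaling. Krt14 was not called in either and Krt6a rose in WT (log2FC 3.10, limma adjusted p = 0.00272). The 11 immune markers listed summed to 16.4 to 48.3 in NS and 68.0 to 120 (WT 5dw replicate 2) in 5dw. In 5dw most of this was Cd3e, at 55.5 to 104.7. Cd79a went the other way, at 1.205 to 1.767 in NS and 0.702 to 1.003 in 5dw, and was called lower in both genotypes. Cd68 was called lower in Act only (log2FC -0.72, limma adjusted p = 0.0299). After median-ratio scaling 0 immune markers were called lower. The sum of the 7 endothelial markers was 6.30 to 11.4 in NS and 16.4 to 18.4 in 5dw, most of it Pecam1 in 5dw (11.5 to 13.99), the only one above NS in all 5dw libraries, while Vwf was below. For the 6 markers of pericytes and smooth muscle the sum was 10.6 to 14.9 and 4.36 to 8.98, with Cspg4 and Notch3 lower in all 5dw libraries and the others overlapping, among them Rgs5, which rose in Act (log2FC 1.122, limma adjusted p = 0.0146) and, after median-ratio scaling, in both genotypes. The 7 markers of Schwann cells and melanocytes summed to 8.65 to 17.2 in NS and 2.33 to 3.70 in 5dw. Of the 3 tested, 2 were called lower in each genotype. The part of all these transcripts in the results below was not tested. WT NS replicate 1 and Act NS replicate 1 stood apart from the other NS libraries on the second principal component, at 22.4 and 35.7 against -18.0 to -7.4.

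The factors spanned a wide range of levels. In WT NS, Twist1 (mean 53.2 RPKM) and Prrx1 (47.8) led and did not separate from each other, and Snai1 followed at 19.6. Snai2, Twist2 and Zeb2 lay close together, at means of 11.1, 10.98 and 10.4, with overlapping libraries. Zeb1 (8.28) and Runx1 (4.95) came next, Runx2 was at 1.27 and Scx at 0.0274. In the wounds Prrx1, Snai1 and Twist1 shared the top, with means of 31.8, 31.2 and 28.4 for WT and of 33.6, 27.9 and 26.6 for Act mice. The largest move in this order was that of Runx1, from 8 in each of the 6 NS libraries to 4 or 5 in the 5dw libraries, while Runx2 and Scx were 9 and 10 in every library. Against all tested genes, Runx1 passed 49.1% of them in WT NS and 81.8% in WT 5dw, and Runx2 went from 11.4% to 55.3%.

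**Figure D1:**
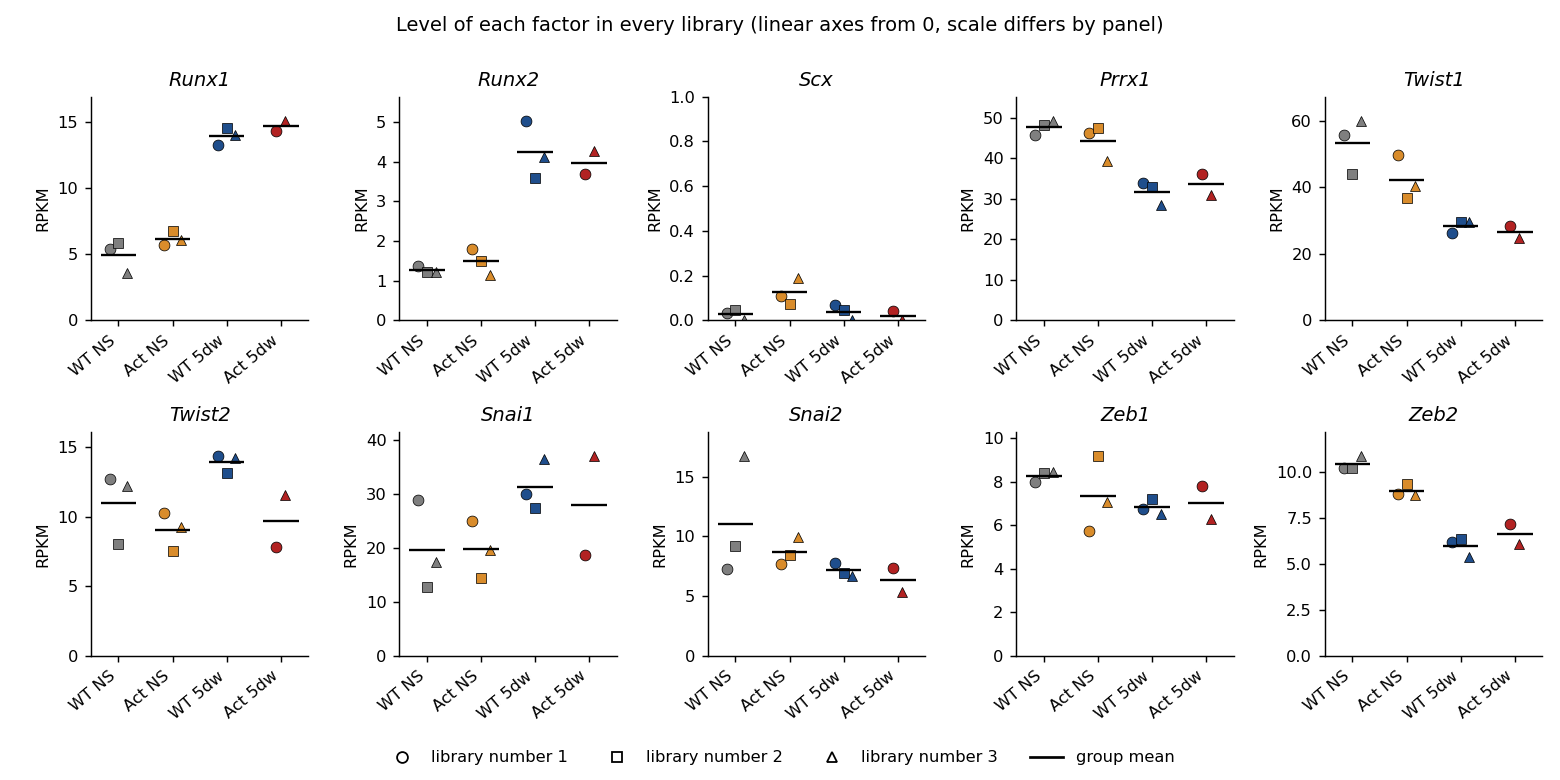
RPKM of the 10 factors (vertical axes, linear from 0) in the 4 groups, with 1 point for each library, its shape giving the library number and the bar the group mean. Runx1 and Runx2 stand higher in all 5dw libraries than in any NS library, Prrx1, Twist1 and Zeb2 stand lower in all of them, and Scx stays at or under 0.192.

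The 2 RUNX genes rose with wounding in both genotypes. Runx1 (chromosome 16, 92601466 to 92826149, GRCm38) was at 5.40, 5.88 and 3.55 RPKM in WT NS and 5.67, 6.73 and 6.11 in Act NS. In the wounds it was at 13.3, 14.5 and 14.03 (WT) and 14.4 and 15.1 (Act). Every wound library was above every library of normal skin. The log2FC, on the log2(RPKM + 0.5) scale throughout, was 1.44 (SE 0.16, limma adjusted p = 5.12e-05), or 2.71-fold, in WT and 1.196 (SE 0.18, limma adjusted p = 0.000466), or 2.29-fold, in Act. Runx2 (chromosome 17, 44495987 to 44814797) was at 1.37, 1.22 and 1.22 in WT NS and 1.80, 1.51 and 1.15 in Act NS. Wound libraries held 5.04, 3.59 and 4.12 (WT) and 3.68 and 4.27 (Act). Here too no wound library overlapped normal skin, and the lowest library still held 201 reads. Its log2FC was 1.41 (SE 0.15, limma adjusted p = 4.42e-05) in WT and 1.18 (SE 0.17, limma adjusted p = 0.000396) in Act. In bulk RNA, more cells that express a gene and more RNA per cell cannot be told apart.

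The third member of the family went the other way. Runx3 was at 2.08 to 2.78 RPKM in the 6 NS libraries and at 0.0906 to 0.214 in the 5 5dw libraries, a log2FC of -2.13 (SE 0.13, limma adjusted p = 1.2e-06) in WT and -2.18 (SE 0.14, limma adjusted p = 3.91e-06) in Act. Within the summed RUNX level, which was 7.09 to 10.7 in NS and 18.3 to 19.6 in 5dw, Runx3 took 22.6% to 32.7% in NS and 0.491% to 1.17% in 5dw. The share of Runx1 went from 50.1% to 64.1% in NS to 72.2% to 79.3% in 5dw. Runx1 to Runx2 ratios overlapped between the tissues, at 2.92 to 5.32 and 2.64 to 4.06.

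The start-site sequences of the 2 risen RUNX genes are shown because both hold matches to the RUNX motif itself. They are RefSeq windows of GRCm38.p6 from 250 bases before to 50 bases after a transcript start, written in the direction of the gene, with the motif TGTGGT, read here as its reverse complement ACCACA, in capitals. The distal Runx1 start lies at chr16:92826025-92826324 (minus strand), the proximal one at chr16:92697280-92697579 (minus strand) and the Runx2 start at chr17:44814578-44814877 (minus strand).
Runx1 distal: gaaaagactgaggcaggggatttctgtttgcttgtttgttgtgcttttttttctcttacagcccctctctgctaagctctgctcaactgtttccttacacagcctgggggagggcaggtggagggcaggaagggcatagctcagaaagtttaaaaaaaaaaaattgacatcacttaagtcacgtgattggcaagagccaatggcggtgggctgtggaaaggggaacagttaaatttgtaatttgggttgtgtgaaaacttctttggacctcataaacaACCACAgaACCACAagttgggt
Runx1 proximal: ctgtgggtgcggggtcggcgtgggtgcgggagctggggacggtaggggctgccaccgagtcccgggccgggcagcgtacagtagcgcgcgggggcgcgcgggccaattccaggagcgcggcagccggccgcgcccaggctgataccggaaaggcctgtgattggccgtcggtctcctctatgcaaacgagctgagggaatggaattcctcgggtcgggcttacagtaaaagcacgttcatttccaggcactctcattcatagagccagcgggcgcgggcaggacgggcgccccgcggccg
Runx2: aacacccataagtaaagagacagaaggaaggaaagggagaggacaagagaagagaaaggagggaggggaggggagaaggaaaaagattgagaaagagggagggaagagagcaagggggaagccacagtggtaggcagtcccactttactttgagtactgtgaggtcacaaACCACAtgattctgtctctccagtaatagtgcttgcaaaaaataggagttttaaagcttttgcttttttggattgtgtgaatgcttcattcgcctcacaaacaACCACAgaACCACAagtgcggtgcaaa

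The distal Runx1 window holds 2 matches, beginning at +29 and +37, and the Runx2 window holds 3, at -80, +24 and +32, with position 1 the first base of the transcript. In both, the downstream pair lies 8 bases apart. The proximal Runx1 window, with 35 CpG against 2 in the distal one, has no match on either strand, and neither has any window of Prrx1, Twist1, Twist2, Snai1 or Zeb2. The motif occurs in 16.8% of the 32851 RefSeq start windows, 2 or more matches in 1.81%, and a pair 8 bases apart, a spacing looked for after these windows were seen, in 0.0609%. A match is a description of letters and not of binding, and RPKM per gene does not tell from which Runx1 start its transcripts came.

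Snai1 varied widely between libraries of a group. Snai1 (chromosome 2, 167538195 to 167542814), the repressor Snail, was at 28.8, 12.7 and 17.3 RPKM in WT NS and 25.0, 14.4 and 19.6 in Act NS. In 5dw the values were 29.9, 27.4 and 36.4 (WT) and 18.7 and 37.0 (Act). WT NS replicate 1 was as high as the WT wounds and Act 5dw replicate 1 as low as normal skin, so the tissues overlapped. The log2FC of 0.73 (SE 0.32, limma adjusted p = 0.0705) in WT and 0.45 (SE 0.36, limma adjusted p = 0.329) in Act missed the threshold. The WT comparison passed it when the library number was entered as a replicate block (adjusted p = 0.0374), after median-ratio scaling (log2FC 1.18, adjusted p = 0.0189) and without WT NS replicate 1 (log2FC 1.04, adjusted p = 0.0153), within a range of 0.0116 to 0.246 over all alternatives. The 2 NS libraries with the highest Snai1 in their groups, WT NS replicate 1 and Act NS replicate 1, were also those that stood apart on the second principal component and had the lowest keratinocyte sums, 1242 and 1255, and the part of this in the Snai1 level was not tested.

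Snai2 (chromosome 16, 14705852 to 14709385), which encodes Slug, was at 7.30, 9.16 and 16.7 in WT NS and 7.72, 8.42 and 9.90 in Act NS. The 5dw libraries gave 7.79, 6.94 and 6.72 (WT) and 7.39 and 5.30 (Act). WT NS replicate 3 was well above the other libraries, and the tissues overlapped in WT, while both Act 5dw libraries lay below the 3 of Act NS. Its log2FC was -0.51 (SE 0.25, limma adjusted p = 0.0961) in WT and -0.43 (SE 0.28, limma adjusted p = 0.225) in Act. The WT value was -0.76 without WT NS replicate 1 (adjusted p = 0.0206, range over the alternatives 0.0206 to 0.785), -0.185 without WT NS replicate 3 (adjusted p = 0.393) and -0.082 after median-ratio scaling (adjusted p = 0.785). Snai1 took 50.8% to 79.8% of the summed SNAI level in NS and 71.7% to 87.5% in 5dw.

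The start window of Snai1 is shown because it holds the E-box CAGGTG that the SNAI and ZEB proteins bind, read here as CACCTG and given in capitals at -126 (chr2:167537945-167538244, plus strand, RefSeq on GRCm38.p6).
Snai1: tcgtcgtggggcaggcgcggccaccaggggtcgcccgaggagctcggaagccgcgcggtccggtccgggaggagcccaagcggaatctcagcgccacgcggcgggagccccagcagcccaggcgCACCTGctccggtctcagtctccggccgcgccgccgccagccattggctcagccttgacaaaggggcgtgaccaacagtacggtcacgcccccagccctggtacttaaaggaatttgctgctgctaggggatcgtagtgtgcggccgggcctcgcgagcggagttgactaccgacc

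The same letters occur in 20.2% of all start windows on either strand. Among the windows of the factors the only other match is at -136 in the distal Runx1 window, in the stretch gcaggtgg, and none of the 11 windows, which cover 7 of the 10 factors, holds the TWIST form CATCTG, found in 17.2% of all windows.

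The 2 TWIST genes parted. Twist1 (chromosome 12, 33957671 to 33959829) was at 55.8, 43.9 and 60.0 RPKM in WT NS and 49.6, 36.6 and 40.4 in Act NS. After wounding it stood at 26.3, 29.5 and 29.5 (WT) and 28.5 and 24.7 (Act). The lowest library of normal skin was above the highest wound library. Its log2FC was -0.88 (SE 0.16, limma adjusted p = 0.000824) in WT and -0.65 (SE 0.17, limma adjusted p = 0.0111) in Act, and the call in Act was lost without Act 5dw replicate 3 (adjusted p = 0.0948, range over the alternatives 0.00666 to 0.234). Twist2 (chromosome 1, 91801461 to 91848028) was at 12.7, 8.04 and 12.2 in WT NS and 10.3, 7.56 and 9.24 in Act NS. In the wounds it was at 14.4, 13.2 and 14.2 (WT) and 7.84 and 11.5 (Act). The 3 WT 5dw libraries were the highest of the 11, while the Act 5dw libraries lay among those of normal skin. The log2FC of Twist2 was 0.35 (SE 0.19, limma adjusted p = 0.14) in WT and 0.08 (SE 0.22, limma adjusted p = 0.78) in Act. After median-ratio scaling the WT value was 0.79 (adjusted p = 0.01, range over the alternatives 0.01 to 0.471). The ratio of Twist1 to Twist2 within a library was 4.37 to 5.46 in NS and 1.84 to 3.63 in 5dw. Multiplying all values of a library by 1 number cannot alter it. The annotated antisense gene Gm29100 covers 46.5% of the exonic bases of Twist2, and it was listed at no more than 0.343 RPKM. The sources used here do not say whether counting used strand.

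Prrx1 (chromosome 1, 163245119 to 163313710) was at 45.8, 48.3 and 49.4 RPKM in WT NS and 46.3, 47.4 and 39.3 in Act NS. Wound libraries held 33.9, 33.0 and 28.6 (WT) and 36.2 and 31.02 (Act). All wound libraries were below all NS libraries, and the gap was small, from 39.3 to 36.2. The log2FC was -0.58 (SE 0.13, limma adjusted p = 0.00258) in WT and -0.39 (SE 0.14, limma adjusted p = 0.04) in Act. The call in Act was lost under 13 of 20 alternatives, with the replicate block among them (adjusted p = 0.0555, range over the alternatives 0.0282 to 0.847). It was lost without any 1 library other than replicates 1 and 2 of WT NS and replicate 3 of Act NS. The ratio of Prrx1 to its close relative Prrx2, which was lower in 5dw as well (log2FC -0.55, limma adjusted p = 0.0224, in WT and -0.58, limma adjusted p = 0.0367, in Act), overlapped between the tissues. Both Prrx2 calls were lost after median-ratio scaling (adjusted p = 0.652 and 0.371).

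Of the ZEB repressors, Zeb2 fell and Zeb1 did not pass the test. Zeb2 (chromosome 2, 44983632 to 45117395) was at 10.2, 10.2 and 10.9 RPKM in WT NS and 8.80, 9.36 and 8.76 in Act NS. In 5dw the values were 6.16, 6.33 and 5.37 (WT) and 7.17 and 6.05 (Act). The wound libraries lay below those of normal skin without overlap. The log2FC of Zeb2 was -0.76 (SE 0.11, limma adjusted p = 0.000245) in WT and -0.42 (SE 0.12, limma adjusted p = 0.017) in Act. Without Act 5dw replicate 3 the adjusted p in Act was 0.152 and without Act NS replicate 2 it was 0.052, within a range over the alternatives of 0.0144 to 0.591. Zeb1, on chromosome 18, was at 7.99, 8.40 and 8.44 in WT NS and 5.76, 9.19 and 7.09 in Act NS. The 5dw libraries gave 6.76, 7.23 and 6.51 (WT) and 7.79 and 6.31 (Act), so the tissues overlapped through the spread of the Act NS libraries. Its log2FC was -0.26 (SE 0.15, limma adjusted p = 0.165) in WT and -0.04 (SE 0.17, limma adjusted p = 0.873) in Act, and its sign turned after median-ratio scaling, to 0.17 and 0.30. The ratio of Zeb1 to Zeb2 was under 1 in every NS library, at 0.654 to 0.983, and above it in every 5dw library, at 1.04 to 1.21.

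Scx (chromosome 15, 76457452 to 76459458) was close to 0 in every library and was not tested. It was at 0.0349, 0.0472 and 0 RPKM in WT NS and 0.110, 0.0731 and 0.192 in Act NS. After wounding it stood at 0.0665, 0.0455 and 0 (WT) and 0.0429 and 0 (Act). These values stand for 0 to 5 reads a library and 18 reads in all. The Act NS libraries, with 3, 2 and 5 reads, were above those of WT NS (1, 1 and 0) and of Act 5dw (1 and 0), and from so few reads nothing is drawn.

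In the wounding comparison of WT mice 5 of the 9 tested factors were DEGs (adjusted p under 0.05), 2 higher and 3 lower, where 58.3% of all 11979 tested genes were DEGs, 9.45% higher and 48.8% lower. In that of Act mice, whose libraries are others than those of the WT comparison, 5 of 9 were again DEGs, 2 higher and 3 lower, and the background was 45.6%, with 9.04% higher and 36.5% lower. The factors called and their directions were Runx1 and Runx2 up and Prrx1, Twist1 and Zeb2 down in each genotype. The count in Act was 2 without Act 5dw replicate 3, 3 without Act NS replicate 2 and 4 with the replicate block, so the calls of lower factors there depend on single libraries. Higher in both comparisons were 7.4% of all genes and lower in both 34.1%. Across all libraries, 2 factors lay above and 3 below normal skin without overlap, against 8.45% and 38.9% of all genes. The count of lower factors was thus near the background, and on unscaled RPKM the 2 RUNX genes were on the rarer side.

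The tested genes as a whole had a median log2FC of -0.40 in WT and -0.31 in Act, so a fall of this size on the RPKM scale was what the middle gene did. Relative to that median, Runx1 was at 1.83 and 1.503, Runx2 at 1.81 and 1.49, Snai1 at 1.13 and 0.75 and Twist2 at 0.75 and 0.39 in WT and Act. Twist1 was at -0.48 and -0.34, Zeb2 at -0.36 and -0.11 and Prrx1 at -0.18 and -0.09. Median-ratio scaling, which removes the shift, kept the calls of Runx1 (log2FC 1.86 and 1.54) and Runx2 (1.77 and 1.48) in both genotypes. It kept that of Zeb2 in WT (log2FC -0.33, adjusted p = 0.0228, range over the alternatives 0.000158 to 0.0228). Prrx1, Twist1 and, in Act, Zeb2 were no longer called, and Snai1 and Twist2 were in WT, so that 4 factors were higher and 1 lower in WT and 2 higher and 0 lower in Act. The background then was 22.4% higher and 22.2% lower in WT, and 19.9% and 20.8% in Act. In WT, 97.8% of genes had a lower log2FC than Runx1, 97.6% than Runx2, 93.5% than Snai1 and 35.5% than Prrx1.

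**Figure D2:**
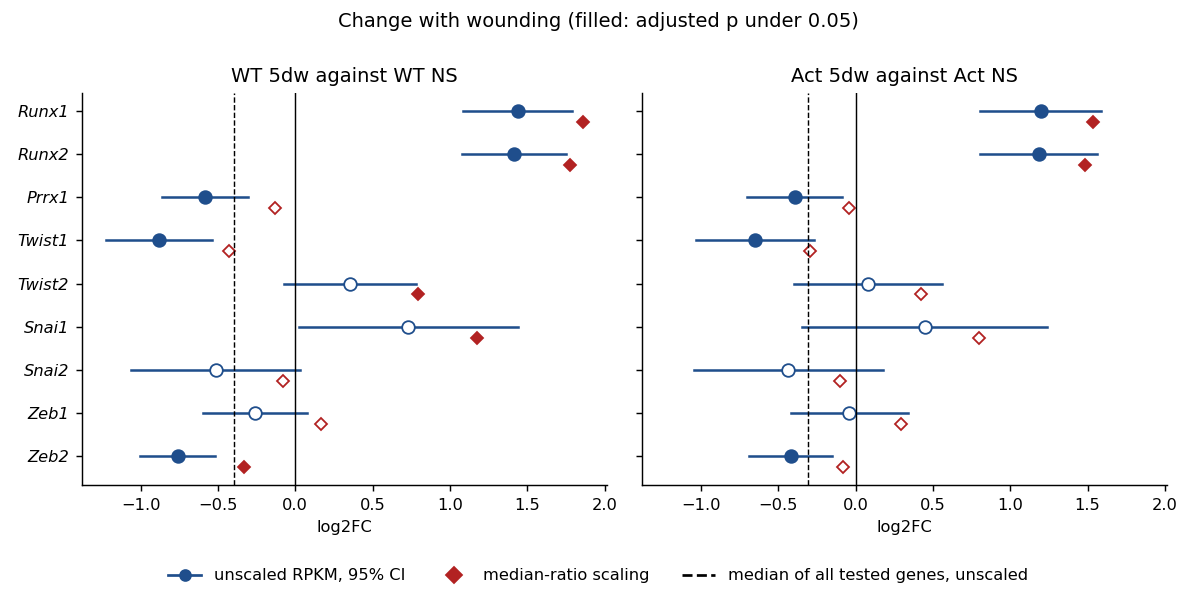
The log2FC of 9 factors (horizontal axis) between 5dw and NS in WT (left) and Act (right), as circles with 95% confidence intervals on unscaled RPKM and diamonds after median-ratio scaling, filled where the adjusted p was under 0.05. The dashed line is the median of all tested genes, at -0.40 and -0.31. Runx1 and Runx2 are filled on both scales, while Prrx1 and Twist1 lose their calls after scaling in both genotypes.

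Ratios of related factors within a library do not depend on any scaling. Those of Twist1 to Twist2, Zeb1 to Zeb2 and Runx1 to Runx3 parted the tissues in every library. Snai1 to Twist1 was 0.288 to 0.516 in NS and 0.657 to 1.498 in 5dw, so the more abundant TWIST gene and the more abundant SNAI gene came closer together in the wounds. Snai1 to Snai2 overlapped, at 1.03 to 3.95 and 2.53 to 6.97, with both NS libraries numbered 1 at the top of their groups (3.95 and 3.24).

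**Figure D3:**
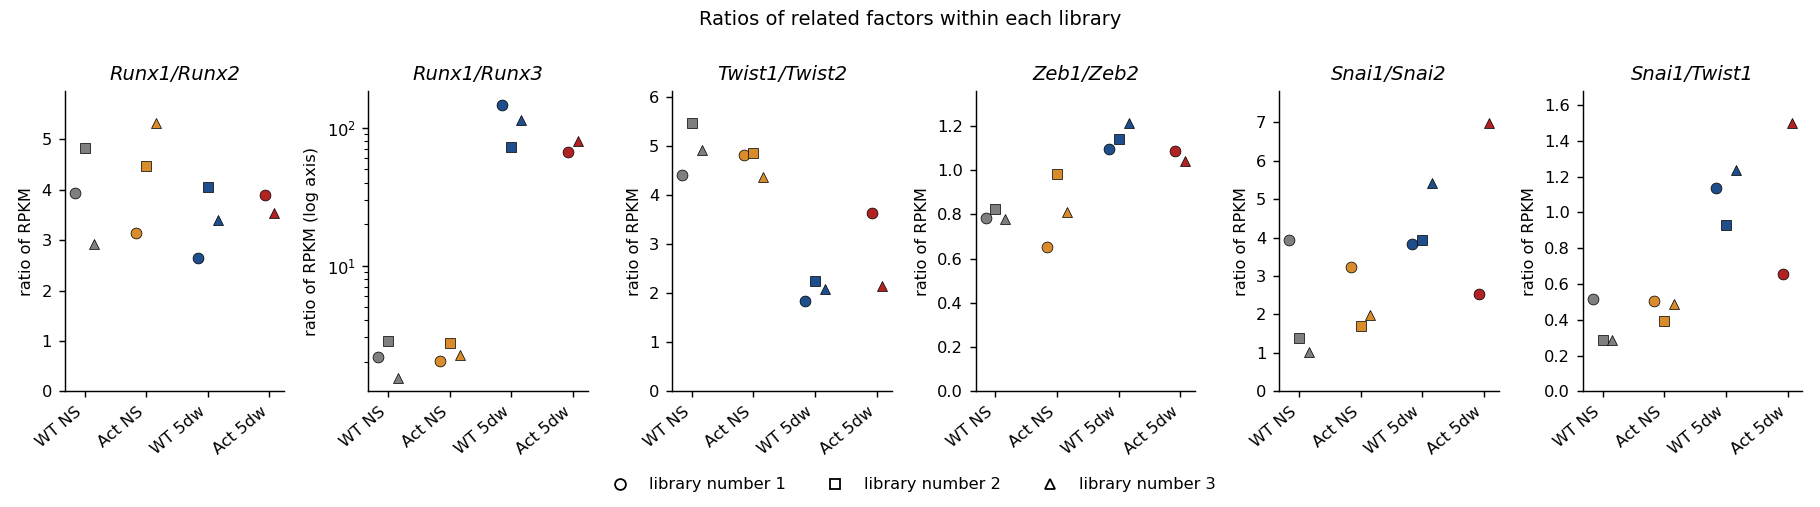
Ratio of the RPKM of 2 factors in each library (vertical axes, linear except Runx1 to Runx3, which is logarithmic), by group, with the shape of a point giving the library number. The 5dw and NS libraries are apart for Runx1 to Runx3 (67.1 to 147 against 1.53 to 2.83), Twist1 to Twist2, Zeb1 to Zeb2 and Snai1 to Twist1, and overlap for Runx1 to Runx2 and Snai1 to Snai2.

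The comparison of Act with WT asked whether activin from keratinocytes went with other levels of these factors in fibroblasts. In NS 0 of 9 factors were DEGs by limma, with 0 of them at an unadjusted p under 0.05, where 0.0167% of all genes were DEGs and 6.88% had an unadjusted p under 0.05. The nearest were Twist1 (log2FC -0.33, 95% confidence interval -0.67 to 0.01), Runx1 (0.32, interval -0.03 to 0.67) and Zeb2 (-0.21, interval -0.45 to 0.04). Zeb2 was lower in all 3 Act NS libraries, at 8.76 to 9.36 against 10.2 to 10.9 in WT NS, which was the case for 7.98% of all genes. In 5dw 0 of 9 were DEGs, 0.0334% of all genes were, and 1 factor, Twist2, had an unadjusted p under 0.05, as did 3.22% of all genes. Twist2 was at 7.84 and 11.5 in Act 5dw and 13.2 to 14.4 in WT 5dw, a log2FC of -0.52 (95% confidence interval -1.001 to -0.04, unadjusted p = 0.0351, limma adjusted p = 1, range over the alternatives 0.586 to 1). Both Act libraries were below the 3 WT libraries, as for 15.2% of all genes. Leaving out replicate 1 of Act 5dw brought the log2FC to -0.26, and leaving out its replicate 3 brought it to -0.79. The intervals of the other 8 factors in 5dw covered 0 and reached from -1.02, for Snai1, to 0.56, also for Snai1, so differences of that size remained possible for it. For Runx1 the interval was -0.32 to 0.47 and for Runx2 -0.45 to 0.30.

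The change with wounding was set against genotype in the interaction term, where 0 of 9 factors and 0 genes in all (0% of those tested) were called by limma, and 400 genes (3.34%) had an unadjusted p under 0.05, none of the 9 factors among them. The closest was Zeb2, which fell less in Act than in WT by 0.34 (95% confidence interval -0.02 to 0.70, unadjusted p = 0.0607, limma adjusted p = 0.999). The WT and Act wounding values given above were thus not shown to differ for any factor.

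**Figure D4:**
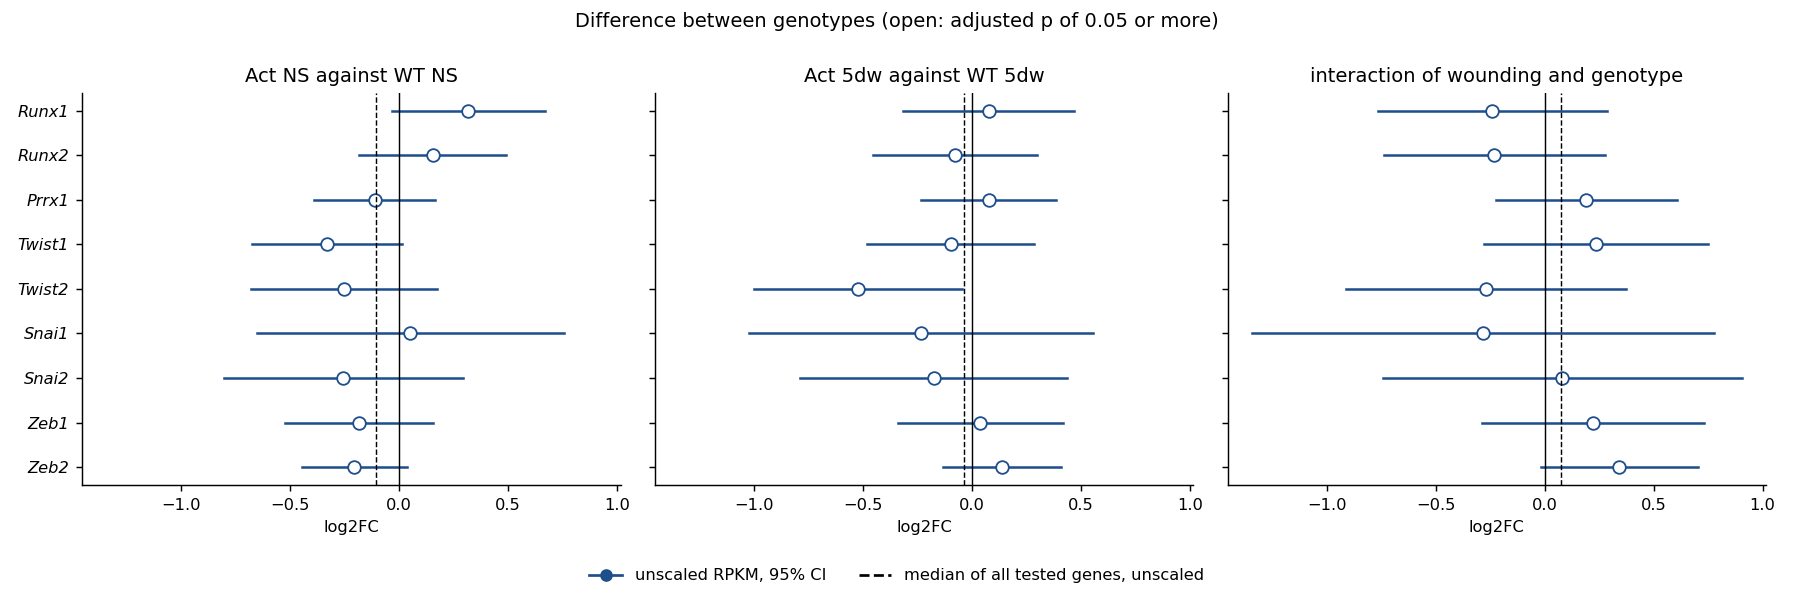
The log2FC of 9 factors (horizontal axis) with 95% confidence intervals between Act and WT in NS (left) and 5dw (middle), and the interaction of wounding with genotype (right), with the dashed line at the median of all genes. All points are open, since 0 of 9 passed the adjusted p of 0.05, and the interval of Twist2 in 5dw alone leaves out 0.

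The partners of these factors were looked up as fixed lists of names. Of the RUNX partners, Cbfb, the shared subunit, was at 15.6 to 22.6 RPKM in NS and 21.1 to 25.8 in 5dw, with a log2FC of 0.04 (limma adjusted p = 0.82) in WT and 0.36 (limma adjusted p = 0.0897) in Act. After median-ratio scaling it was 0.49 (adjusted p = 0.00617) in WT and 0.71 (adjusted p = 0.00176) in Act. The Groucho co-repressor genes Tle1, Tle2, Tle3 and Tle4 were all lower in both genotypes, 4 of the 5 genes of this list against 48.8% (WT) and 36.5% (Act) of all tested genes, and Tle4, at 3.41 to 6.32 in NS and 0.580 to 1.11 in 5dw, had a log2FC of -1.88 in WT and -1.98 in Act. The calls of Tle2 were lost after scaling.

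Of the 7 bHLH partners and inhibitors, 5 fell in each genotype and 0 rose, where 48.8% of all tested genes fell in WT and 36.5% in Act. These were Tcf4, an E protein, and all 4 ID genes, which encode inhibitors of bHLH dimers. Id1 went from 14.6 to 27.5 RPKM in NS to 1.74 to 4.31 in 5dw (log2FC -2.67 in WT, limma adjusted p = 5.12e-05, and -2.54 in Act, limma adjusted p = 0.000206). Id3 went from 97.0 to 140 in NS, where it was above every one of the 10 factors, to 34.0 to 49.1 in 5dw (log2FC -1.39 and -1.54). The 5 stayed called after median-ratio scaling. The E proteins Tcf3 and Tcf12 were not called, at -0.17 and -0.28 in WT. Of the 6 co-repressor genes used by SNAI and ZEB proteins, which include Ctbp1, Kdm1a and Hdac1, 1 fell in each genotype, Rcor1, and 5 were not called, with log2FC values between -0.23 and -0.03 in WT. After scaling Rcor1 was not called either (adjusted p = 0.305 in WT and 0.373 in Act).

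Among 17 other tested regulators of mesenchyme or of the contractile programme, 2 rose and 9 fell in WT and 1 rose and 6 fell in Act, near the background of 9.45% higher and 48.8% lower in WT and 9.04% and 36.5% in Act. After median-ratio scaling 3 were higher and 2 lower in WT, and 3 were higher and 3 lower in Act. The background was then 22.4% higher and 22.2% lower in WT, and 19.9% and 20.8% in Act. Sox4 rose in both (log2FC 1.13, limma adjusted p = 0.0172, and 1.35, limma adjusted p = 0.016), and Sox9 rose in WT (0.60, limma adjusted p = 0.0209) and was at 0.32 (limma adjusted p = 0.25) in Act, where it was called after scaling (0.66, adjusted p = 0.0134). Meox1 was among those that fell, by 1.21 in WT and by 1.66 in Act. Srf, the factor that drives contractile genes, had a log2FC of -0.86 (limma adjusted p = 0.0117) in WT and -0.99 (limma adjusted p = 0.0134) in Act, and neither call was kept after scaling (adjusted p = 0.146 and 0.0588). The median of this list was -0.51 in WT against -0.40 for all genes.

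Genes known as targets or companions of the factors moved unevenly. Of 11 mesenchymal genes 8 rose, 1 fell and 2 were not called in each genotype, where 9.45% (WT) and 9.04% (Act) of all tested genes rose and 48.8% and 36.5% fell, shares that also stand behind the epithelial, osteoblast and tendon genes below. Acta2, which encodes smooth muscle actin, went from 12.0 to 29.3 RPKM in NS to 122 to 261 in 5dw. Cdh2, which encodes N-cadherin, rose from 0.663 to 1.23 to 3.51 to 4.23 (log2FC 1.71 in WT and 1.76 in Act), while S100a4 fell (log2FC -1.10 and -1.47), a call lost in WT after median-ratio scaling. The 8 tested epithelial genes all fell, Cdh1 from 11.3 to 45.5 in NS to 0.920 to 5.35 in 5dw, alongside the keratinocyte markers named above, and in each tissue Cdh1 was highest in the library with the highest keratinocyte sum, Act NS replicate 3 (sum 4618) and WT 5dw replicate 3 (sum 1364). Osteoblast genes split, with 3 of 6 higher and 3 of 6 lower in each genotype. Higher were Spp1 (4.61 to 8.14 in NS, 90.4 to 181 in 5dw), Mmp13 and Bglap. Lower were Alpl, Dlx5 and Sp7, the osteoblast factor osterix downstream of Runx2, which went from 0.719 to 1.16 to 0.0520 to 0.175. Of 6 tendon genes, 1 rose and 1 fell in WT and 2 rose and 1 fell in Act. Tnmd, the tenomodulin gene that Scx activates, fell from 24.5 to 36.7 to 1.66 to 3.56 (log2FC -3.48 and -3.16) while Tnc rose (6.18 and 5.20), and Col14a1 rose in Act (1.10, limma adjusted p = 0.0181) and was at 0.46 (limma adjusted p = 0.189) in WT, where it was called after scaling (0.92, adjusted p = 0.0192). Its interaction was not called. Fmod was called in Act after scaling only (0.98, adjusted p = 0.012).

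**Figure D5:**
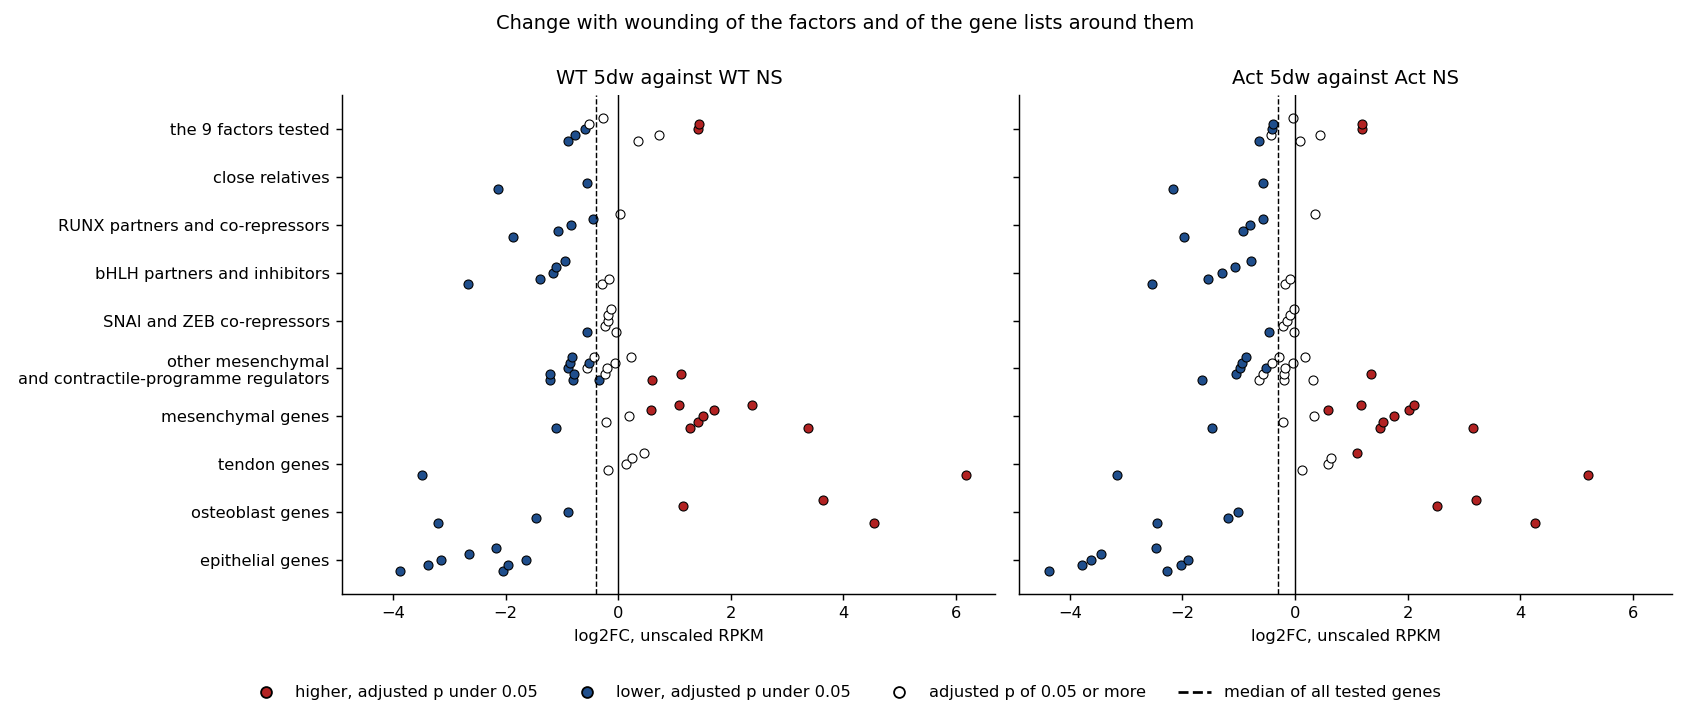
The log2FC of unscaled RPKM (horizontal axis) between 5dw and NS in WT (left) and Act (right) for each tested gene of 10 lists (rows), red where higher and blue where lower at an adjusted p under 0.05. The dashed line is the median of all tested genes. Epithelial genes, the ID and TLE genes lie to the left of it, and 8 of 11 mesenchymal genes are red in each panel.

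The patterns of single factors over the 11 libraries differed in how common they were. With a Pearson r over 0.9 on the log2(RPKM + 0.5) scale, Zeb2 had 1863 other genes, Prrx1 931, Twist1 766, Runx2 415 and Runx1 382, whereas Snai2 had 44, Zeb1 16, Snai1 8 and Twist2 4. The genes most like Runx1 were Bcl2l11 and Csgalnact1 (r 0.984 for each), those most like Runx2 were Mical2 (0.993) and Col27a1 (0.992), and those most like Zeb2 were Kdm4c (0.995) and Ppp2r5a (0.992). For Twist1 they were Meis1 (0.985) and Cox19 (0.983) and for Prrx1 Zfp317 (0.986) and Rab11fip2 (0.985). These correlations mostly restate the gap between the 2 tissues.

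The 2 factors with the fewest such genes resembled each other. After the group means were taken off, Snai1 and Twist2 had an r of 0.90 over the 11 libraries, the highest of the 36 pairs of tested factors (lowest -0.79, Runx1 with Snai2). Of 6 other genes looked at in the same way, Col1a1, the gene of the collagen I alpha chain, had an r of 0.89 with Snai1 and 0.90 with Twist2, while Acta2 was at 0.05 and -0.19 and Tagln at 0.02 and -0.21. Col1a1 was at 4709, 2092 and 3327 RPKM in WT NS and 3801, 2217 and 3709 in Act NS. In the wounds it was at 10030, 8091 and 9354 (WT) and 7761 and 10280 (Act). Within each of the 4 groups the library with the lowest Col1a1 was also the one with the lowest Snai1 and the lowest Twist2. In WT NS, Act NS and WT 5dw this was replicate 2, and since libraries of the same number deviate together, these are not independent cases. With the group means left in, the genes most like Snai1 were Tgfb1 (r 0.975) and Cck (0.944), and Tgfb1, a TGF-beta ligand gene, was at 4.37 to 10.1 in NS and 8.03 to 13.9 in 5dw. Those most like Twist2 were Rab4b (0.933) and Creb3l1 (0.925). For Snai2 they were Lrrc40 (0.945) and Aasdhppt (0.941), and for Zeb1 Nsa2 (0.964) and Rpl23 (0.955). The points share their library and its depth, and both kinds of correlation are descriptions.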

How the data were processed

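Poly-A RNA of sorted cells was sequenced as single 100 bp reads. Per the labels and the study's methods, the authors aligned reads to GRCm38 in CLC Genomics Workbench 12, left out 1 Act 5dw library after quality control and deposited RPKM values per gene symbol for 11 libraries. Their DEGs came from an edgeR exact test, which takes counts and was not run here.

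For each library the mapped total was sought for which RPKM values, multiplied by gene length, give whole reads (tolerance 0.03). Over the libraries 80.8% to 81.9% of weakly read genes came out whole, too few for a count test. The 11979 genes that reached an RPKM of 1 in 2 or more libraries were fitted as log2(RPKM + 0.5) with limma-trend (limma 3.58.1, R 4.3.3), 1 mean for each of 4 groups, with 7 residual degrees of freedom. The pseudocount pulls fold changes of weakly expressed genes towards 0. Adjustment by Benjamini-Hochberg ran over all tested genes of a comparison, and a DEG is a gene whose adjusted p is under 0.05. The smallest exact permutation p for 3 libraries against 3 is 0.1, and every p of a gene given is therefore from the fit. The scripts were checked on data with known answers, in which 200 of 11979 genes were changed. Over the comparisons between groups, 0% to 0.5% of 1.5-fold changes were recovered. The share was 39% to 56% for 2-fold and 84.5% to 92% for 4-fold changes. Changes of 1.5-fold would thus mostly go uncalled.

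Libraries of the same number deviated together from their group means in each group pair with 3 numbers (r 0.109 to 0.554 over all tested genes). For the pairs with Act 5dw, r was -0.124 to 0.189. The main fit does not use these numbers, and its tests are unpaired. The numbers were taken to pair the samples only in the alternative with the replicate block.

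The factors and gene lists were chosen with earlier results of these data known. Genes were named by a rule: the 10 factors, genes of the lists, Inhba, and the 2 genes most correlated with each tested factor. Single genes of the lists were picked as examples after their values were seen. The sum of 1 list of cell type markers is not reported here. Gene positions and exon overlaps came from GENCODE M21, and start windows and motifs from RefSeq (GRCm38.p6), where the table of windows used here covered 7 of the 10 factors. Windows of Scx, Snai2 and Zeb1 were not analysed here. On both strands 8 motifs were searched. The letters CAGGTG and CATCTG are also E-boxes (CANNTG).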

Additional observations from a re-analysis of the deposited data

How the results depend on the processing

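Over 20 alternatives, the directions and calls of Runx1 held in both wounding comparisons. Those of Runx2 held under the 19 alternatives in which it was tested. It was below the filter of 5 RPKM. Between WT 5dw and WT NS, median-ratio scaling lost the calls of Prrx1 and Twist1 and gained those of Snai1 and Twist2. The number of factors called there stayed within 1.5 times of 5 under every alternative. Between Act 5dw and Act NS it was 2 after median-ratio scaling, 2 after quantile normalization and 3 when the compared groups were fitted alone, and 2 to 5 with single libraries left out. It was 2 without Act 5dw replicate 3 (Twist1, Prrx1 and Zeb2 lost) and 3 without Act NS replicate 2 (Prrx1 and Zeb2 lost). Under these settings fewer samples enter or the general shift is removed. After median-ratio scaling 19.9% of all tested genes were higher and 20.8% lower in Act. For the other alternatives the share of all genes called is not given here. A loss among the factors therefore cannot be told from a general loss of calls. With the replicate block 6 factors were called in WT and 4 in Act, Snai1 gained and Prrx1 lost, and it changed no other call of a factor. Signs turned in 26 values, none of them called in either fit. With scaling, Zeb1 turned to 0.17 (WT) and 0.30 (Act), Prrx1 in NS to 0.028 and the Snai2 interaction to -0.017. With quantile normalization Zeb1 turned to 0.14 and 0.305, and with the replicate block Twist2 in Act turned to -0.035 and Zeb1 in Act to 0.032. With single libraries left out, the log2FC in Act wounding ranged from -0.18 to 0.35 for Twist2, -0.036 to 0.93 for Snai1 and -0.19 to 0.12 for Zeb1. In Act NS against WT NS it ranged from -0.21 to 0.36 for Snai1 and -0.50 to 0.074 for Snai2. In Act 5dw against WT 5dw it ranged from -0.18 to 0.04 for Runx2, -0.032 to 0.19 for Prrx1, -0.20 to 0.005 for Twist1, -0.71 to 0.25 for Snai1, -0.40 to 0.047 for Snai2 and -0.10 to 0.18 for Zeb1. The interaction ranged from -0.77 to 0.20 for Snai1 and -0.25 to 0.32 for Snai2. The cause of the other changes was not tested. Replicates are pools of mice, and the number of Act 5dw libraries, 2, limits the precision of every comparison that uses them.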
